A study of Mus musculus with 22 samples.

Results

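The mitochondrial chromosome of the mouse carries 37 genes, and all of them were present among the 37680 gene identifiers of the deposited table. They were taken by chromosome and by the mt- symbols of the annotation, and comprise 13 protein-coding genes, 2 ribosomal RNA (rRNA) genes and 22 transfer RNA (tRNA) genes. The tRNA genes were kept apart, because their models are under 80 nucleotides and the counts they receive depend on how a library was made.

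RNA sequencing was carried out on pools of whole C57BL/6 mouse embryos in which doxycycline switches on an additional copy of a pluripotency factor, either Oct4 (gene symbol Pou5f1) or Nanog. The Oct4 line was labelled ROSA26tg/+; Oct4tg/+ and the Nanog line ROSA26tg/+; Nanogtg/+, so that every embryo of both lines, controls included, carried a transgene at ROSA26 and a factor transgene. Each line was sampled at embryonic day 7.5 (E7.5, 8 to 12 embryos per pool) and at E9.5 (3 embryos per pool), without doxycycline (control) or with it (induced). For the E7.5 pools the pregnant females were injected at E4.5 and then drank treated water, and for the E9.5 pools treated water was given from E6.5. The 8 groups held 3 pools each, apart from the Nanog line controls, with 2 pools at either stage, giving 22 libraries. No group received doxycycline without a factor transgene, so the drug and the factor cannot be told apart in any contrast of induced with control embryos. Doxycycline is known as an inhibitor of mitochondrial protein synthesis, and whether it contributed to the values below was not tested.

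The protein-coding genes of this chromosome all encode subunits of the oxidative phosphorylation machinery, which passes electrons from NADH to oxygen and uses the resulting proton gradient to make ATP. They supply the membrane core of complex I (the Nd genes), cytochrome b of complex III (mt-Cytb), the catalytic core of cytochrome c oxidase, or complex IV (the Co genes), and membrane subunits of the ATP synthase (mt-Atp6 and mt-Atp8). Both strands are transcribed as long precursors, and excision of the tRNAs that lie between the other genes releases the mRNAs and rRNAs. In the early mouse embryo, mitochondria mature and respiration increases as the embryo passes through gastrulation and forms organs.

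In the annotation used for counting (NCBIM37), the chromosome is 16299 bases long, and 12 of the 13 protein-coding genes and both rRNA genes lie on the plus strand. mt-Nd6, a complex I subunit, is the 1 protein-coding gene on the minus strand, at chrM:13552-14070. Of the tRNA genes 14 lie on the plus strand and 8 on the minus strand. Neighbouring protein-coding models share bases at 4 places, and the 3 longest of these stretches are printed here in capitals, read on the plus strand with 15 bases on each side, because reads from them cannot be given to 1 gene by sequence alone. mt-Atp8 and mt-Atp6, which share 43 bases, are read as 1 mRNA, as are mt-Nd4l and mt-Nd4, which share 7 bases. mt-Nd5 and mt-Nd6 share 14 bases on opposite strands, and whether the counting used strand is not given in the sources used here. They span chrM:7912-7984, chrM:10152-10188 and chrM:13537-13580, flanks included.
mt-Atp8/mt-Atp6: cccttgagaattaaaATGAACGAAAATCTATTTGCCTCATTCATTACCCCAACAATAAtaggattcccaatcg
mt-Nd4l/mt-Nd4: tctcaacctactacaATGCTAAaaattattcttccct
mt-Nd5/mt-Nd6: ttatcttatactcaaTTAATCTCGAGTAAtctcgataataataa

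Copies of mitochondrial DNA in the nuclear genome also bear on the counts. On chromosome 1, positions 24618374 to 24623027 matched mitochondrial positions 6390 to 11042 at 99.94% identity. That stretch holds the gene model Gm10222 (positions 24619243 to 24619539, minus strand), whose 297 bases are identical to the whole of mt-Nd4l, and in every library Gm10222 held 50% of the counts of the pair. The values of mt-Nd4l, a complex I subunit, are therefore 1 of 2 equal shares of a joint count. The same stretch holds Gm10925, identical to mitochondrial positions 7790 to 8603, which cover 180 bases of mt-Atp8 and 677 bases of mt-Atp6. Gm10925 held between 14.1% and 20.6% of the counts it shared with mt-Atp6. A shorter copy on chromosome 2 matched at 97.36% identity, and its gene models Gm13339, Gm13340 and Gm13341 held near 0 counts. Adding the chromosome 1 copies to their mitochondrial counterparts, a check chosen after seeing the data, changed no count of called protein-coding genes in the inductions, stage contrasts or comparisons of inductions.

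Levels of different genes were compared in CPM, a gene's count scaled to a common library total, per kilobase of gene model. Averaged over the 22 libraries, mt-Co2 was highest at 6678 CPM per kb, followed by mt-Co1 at 6078, mt-Atp6 at 5234, mt-Co3 at 5045 and mt-Atp8 at 4756. mt-Nd1 (3472 CPM per kb) and mt-Cytb (3150) came next. Below them lay mt-Nd4 (2053), mt-Nd2 (1752), mt-Nd3 (1346), mt-Nd5 (1101), mt-Nd6 (1070) and mt-Nd4l (756). With its chromosome 1 copy added, mt-Nd4l reached 1512 CPM per kb, above mt-Nd5 and mt-Nd6 in 22 of 22 libraries and above mt-Nd3 in 18. With the whole of Gm10925 added, mt-Atp6 reached 6311 CPM per kb and lay above mt-Co1 in 15 of 22 libraries, so both places in the order depend on how the copies are counted. The genes for complex IV and ATP synthase subunits thus stood above all complex I genes in these averages.

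Not every step in that order was distinct. mt-Co2 lay above mt-Co1 in 18 of 22 libraries, mt-Co3 above mt-Atp8 in 15 of 22, mt-Nd1 above mt-Cytb in 13 of 22 and mt-Nd3 above mt-Nd5 in 17 of 22. By contrast, mt-Atp8 lay above mt-Nd1 and mt-Cytb above mt-Nd4 in all 22 libraries. Over all libraries the ranges of every such neighbouring pair overlapped, apart from that of mt-Nd4l and mt-Rnr1. The 2 rRNA genes were far lower, at 182 CPM per kb for mt-Rnr1, the RNA of the small mitochondrial ribosomal subunit, and 160 for mt-Rnr2, that of the large one. Together they gave 0.771 to 1.65 counts per 100 protein-coding mitochondrial counts, so the libraries hold little of them, and mt-Rnr1 lay above mt-Rnr2 in 11 of 22 libraries.

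**Figure D1:**
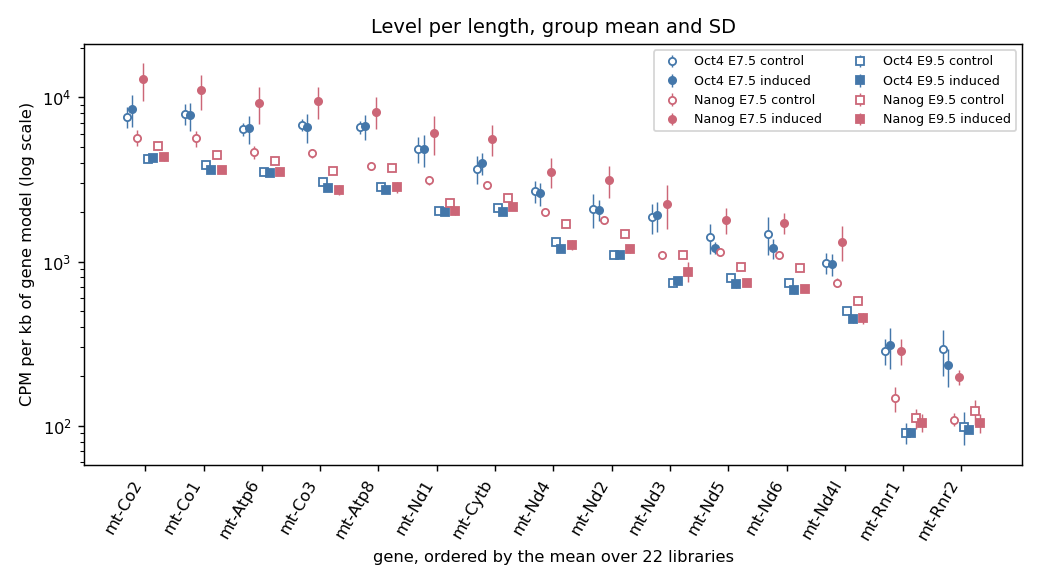
Level of the 13 protein-coding and 2 rRNA genes (x axis, ordered by their mean) as CPM per kb of gene model on a log axis (y axis); points are group means and bars the SD over 2 or 3 pools. mt-Co2 and mt-Co1 lead and the rRNA genes are lowest; the Nanog E7.5 induced group (filled red circles) is the highest of the 8 groups for every protein-coding gene.

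Library totals ran from 4716147 to 42323659 expected counts, the estimated counts per gene that RSEM gives, and a floor of 3 counts corresponds to 0.0709 to 0.636 CPM. The labels were checked with the targeted genes. Pou5f1 rose in the induced Oct4 line from 218 ± 21.3 to 553 ± 67.4 CPM at E7.5 and from 0.87 ± 0.436 to 266 ± 14.5 CPM at E9.5 (SD, n = 3 each; edgeR adjusted p = 0.00037 and 8.02e-15). Nanog in the Nanog line went from 20 ± 3.94 (n = 2) to 91.6 ± 33.3 CPM (n = 3) at E7.5, with the edgeR adjusted p at 0.0752, and rose from 2.2 ± 0.207 to 350 ± 3.32 CPM at E9.5 (adjusted p = 1.4e-18). At E7.5 the other factor was higher too. Pou5f1 rose in the induced Nanog line from 234 ± 15.7 to 525 ± 60.9 CPM (edgeR adjusted p = 0.000955, with 1.22 ± 0.12 as log2 fold change), and Nanog in the induced Oct4 line from 18.4 ± 1.78 to 27.7 ± 5.44 CPM (0.62 ± 0.13, adjusted p = 0.0272), so the level of Pou5f1 does not tell the inductions apart at that stage. In whole embryos, a change in the make-up of cells and a change in the RNA of each cell cannot be told apart. The labels do not say whether pools came from separate litters, and p-values measure the spread among these pools only. A gene was called where the Benjamini-Hochberg adjusted p of edgeR's quasi-likelihood test, fitted over all genes, was under 0.05, and SE denotes the standard error of a log2 fold change.

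In E7.5 embryos of the Nanog line, mitochondrial mRNAs were more abundant after induction. The 13 genes together held 3.27% and 3.59% of counts in the 2 control pools and 5.22%, 6.65% and 8.20% in the 3 induced pools. The groups did not overlap, and the induced pools also differed widely among themselves. The mean share was 3.43% ± 0.228 (SD, n = 2) against 6.69% ± 1.49 (n = 3), a ratio of 1.95. The two-sided exact permutation test gave p = 0.2 (0.3 adjusted over 6 comparisons), in a design whose smallest possible p is 0.1.

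Gene by gene, 10 of the 13 protein-coding genes rose and none fell, where 7.78% of all 14118 genes tested were called, 2.96% higher and 4.82% lower. The median log2 fold change was 1.01 (range 0.70 to 1.23), against 0.00 over all genes. For all 13 genes, each induced pool was above both controls, as was the case for 17.5% of all genes tested.

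Among the complex I genes, mt-Nd2, mt-Nd4, mt-Nd5 and mt-Nd6 rose, while mt-Nd1, mt-Nd3 and mt-Nd4l missed the threshold. mt-Nd5, a proton-pumping subunit of the membrane arm, was at 2130 and 2054 CPM in controls and at 2610, 3730 and 3520 CPM in induced pools. Induced pool 1 stood closest to the controls, and the groups did not overlap. The log2 fold change was 0.70 ± 0.16 (SE, adjusted p = 0.0365). mt-Nd6, read from the opposite strand, was at 580 and 564 CPM in controls and 746, 982 and 961 CPM in induced pools (log2 fold change 0.70 ± 0.13, adjusted p = 0.0163). These were the lowest fold changes of the 13. mt-Nd1, the subunit next to the quinone-binding site, was at 2850 and 3122 CPM against 4467, 5440 and 7572 CPM. Its groups did not overlap either, but with a log2 fold change of 1.01 ± 0.23 it was not called (adjusted p = 0.0522). mt-Nd3 and mt-Nd4l had log2 fold changes of 1.08 ± 0.25 and 0.88 ± 0.23 (adjusted p = 0.0723 and 0.0852).

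mt-Cytb, which carries the quinone sites of complex III, was at 3203 and 3448 CPM in controls and at 5052, 6413 and 7732 CPM in induced pools. The groups did not overlap, and the log2 fold change was 0.99 ± 0.18 (adjusted p = 0.0177). All 3 complex IV genes rose. mt-Co2, which takes up electrons from cytochrome c, was at 3565 and 4186 CPM in controls and at 7178, 7835 and 11395 CPM in induced pools. Every induced pool was well above both controls, induced pool 4 most of all, and the log2 fold change of 1.23 ± 0.22 was the highest of the 13 (adjusted p = 0.0219). mt-Co1, the catalytic subunit that reduces oxygen, was at 8027 and 9380 CPM against 12695, 17725 and 20663 CPM. Here too the groups were apart (log2 fold change 1.02 ± 0.21, adjusted p = 0.0334), as they were for mt-Co3 (1.10 ± 0.19, adjusted p = 0.0167).

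Both ATP synthase genes rose as well. mt-Atp8, a small subunit of the membrane sector, was at 758 and 805 CPM in controls and 1395, 1530 and 2090 CPM in induced pools. It had the lowest adjusted p of the 13, 0.0127, with a log2 fold change of 1.15 ± 0.18. mt-Atp6, which forms part of the proton channel, had a log2 fold change of 1.04 ± 0.21 (adjusted p = 0.0317). The rRNA genes moved the same way. mt-Rnr1 was at 123 and 157 CPM in controls and 217, 284 and 316 CPM in induced pools (log2 fold change 1.01 ± 0.19, adjusted p = 0.0291). mt-Rnr2 was at 184 and 161 CPM against 278, 345 and 317 CPM (0.91 ± 0.12, adjusted p = 0.00336).

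These calls rest on few pools. Without control pool 2, or without control pool 3, no protein-coding gene was called, and without induced pool 3 only 2 were. Against the 3 E7.5 controls of the Oct4 line, a comparison chosen after seeing the data, 1 of the 13 genes was called higher (mt-Co2, 0.73 ± 0.20, adjusted p = 0.0334) and the median log2 fold change was 0.41. Against those controls mt-Rnr1 and mt-Rnr2 had log2 fold changes of -0.01 and -0.59. With all 5 E7.5 controls together, 5 genes were called, at a median of 0.58.

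**Figure D2:**
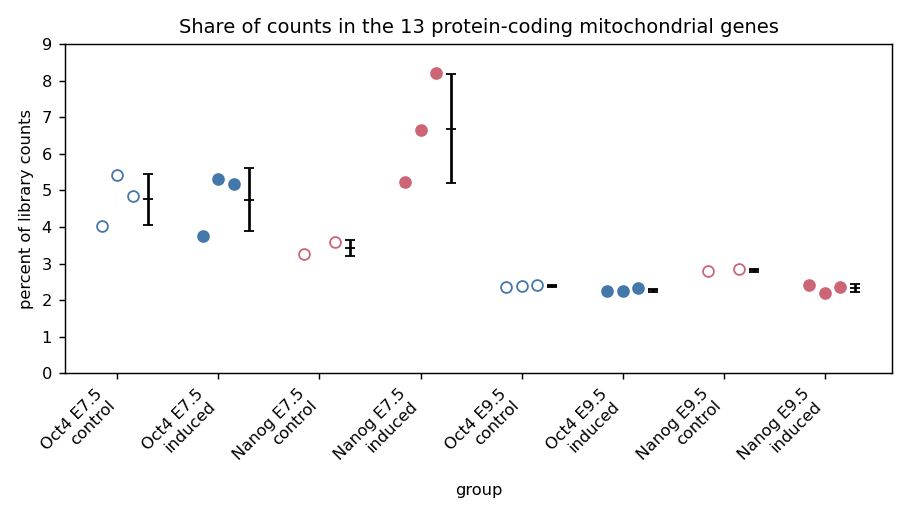
Percent of library counts in the 13 protein-coding mitochondrial genes (y axis) for each pool (circles: open for control, filled for induced) in the 8 groups, with mean and SD. The Nanog E7.5 induced pools range from 5.22% to 8.20%, above the Nanog line controls of that stage, while the E9.5 pools lie close together.

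Other measured features moved with the Nanog E7.5 groups. Of 5 epiblast markers, 4 rose, with a summed level of 870 to 874 CPM in controls and 1987 to 2251 CPM in induced pools. Of 6 visceral endoderm markers, 3 fell, from a sum of 2736 to 3170 CPM down to 1124 to 1751 CPM. Trophoblast markers summed to 200 to 298 CPM in controls and 356 to 494 CPM in induced pools, with 1 of 5 tested called higher. Decidual and maternal blood markers summed to 417 to 428 CPM in controls and spread from 86.9 to 469 CPM in induced pools, with 0 of 6 tested called. Primitive blood markers summed to 72.9 to 113 CPM in controls and 11.6 to 17.3 CPM in induced pools, with 4 of 7 called lower, and heart markers to 31.9 to 38.2 and 23.7 to 31.6 CPM, with 2 of 6 tested called lower. None of these lists had a marker at 0 throughout a group at E7.5. The mitochondrial tRNA models, described further on, summed to 24.9 and 27.5 CPM in the controls and to 0 to 0.462 CPM in the induced pools. The part of these cell types in the mitochondrial counts was not tested, and the split of libraries by tRNA counts cannot be told apart from induction in this contrast.

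In E7.5 embryos of the Oct4 line, no mitochondrial mRNA was called. The 13 genes held 4.02%, 5.41% and 4.84% of counts in controls and 3.76%, 5.32% and 5.16% in induced pools. The groups overlapped completely, with means of 4.76% ± 0.701 and 4.75% ± 0.859 (SD, n = 3 each; two-sided exact permutation p = 1). By edgeR 0 of 13 genes were called, with 0 at an unadjusted p under 0.05 and 0 by DESeq2 or limma-voom. Over all genes tested 6.17% were called, 2.25% higher and 3.91% lower. The median log2 fold change of the 13 was 0.01 (range -0.26 to 0.19), against 0.02 over all genes.

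mt-Co1 was at 10539, 13975 and 12319 CPM in controls and 9332, 13666 and 13011 CPM in induced pools. The lowest pool of either group was its pool 1, and the spread within groups exceeded the difference between them (log2 fold change 0.01 ± 0.18). The fold change farthest from 0 belonged to mt-Nd6, at 551, 934 and 818 CPM in controls and 571, 726 and 581 CPM in induced pools. Its groups overlapped (log2 fold change -0.26 ± 0.20, adjusted p = 0.601). The rRNA genes had log2 fold changes of 0.16 ± 0.23 for mt-Rnr1 and -0.29 ± 0.30 for mt-Rnr2 (adjusted p = 0.824 and 0.737). With standard errors of 0.15 to 0.20 for the protein-coding genes, small changes were not detectable here. In these same pools 5 of 5 epiblast markers rose, from a sum of 749 to 901 CPM to 1431 to 2213 CPM, and 0 of 6 visceral endoderm markers were called. Primitive blood markers went from 82.2 to 141 CPM down to 9.01 to 15.3 CPM in sum, with 6 of 7 called lower.

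By E9.5, the direction in the Nanog line was the opposite: mitochondrial mRNAs were less abundant in induced embryos than in that line's controls. The 13 genes held 2.79% and 2.85% of counts in controls and 2.41%, 2.20% and 2.35% in induced pools. The groups did not overlap and lay close together within themselves. The means were 2.82% ± 0.0445 (SD, n = 2) and 2.32% ± 0.107 (n = 3), a ratio of 0.823 (two-sided exact permutation p = 0.1, the smallest possible; 0.2 adjusted over 6 comparisons).

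All 13 protein-coding genes fell, where 13% of the 13305 genes tested were called lower and 15.4% higher. The median log2 fold change was -0.36 (range -0.46 to -0.20), against 0.00 over all genes, and for each of the 13 genes every induced pool was below both controls, as was the case for 22.8% of all genes tested.

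The complex I gene mt-Nd6 had the largest change, from 463 and 488 CPM in controls to 361, 363 and 337 CPM in induced pools. All induced pools lay below both controls (log2 fold change -0.46 ± 0.06, adjusted p = 5.87e-05). mt-Nd4, another proton-pumping subunit, was at 2264 and 2381 CPM in controls and 1888, 1624 and 1717 CPM in induced pools (-0.45 ± 0.06, adjusted p = 0.000103). Among the Nd genes, the smallest change was that of mt-Nd1, from 2175 and 2200 CPM to 2029, 1816 and 2009 CPM. Its induced pools were still below both controls (-0.20 ± 0.06, adjusted p = 0.0135).

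mt-Cytb was at 2748 and 2818 CPM in controls and 2547, 2340 and 2464 CPM in induced pools, and its log2 fold change of -0.22 ± 0.05 was also among the smaller ones (adjusted p = 0.00514). Of the complex IV genes, mt-Co3 went from 2737 and 2877 CPM to 2251, 1987 and 2214 CPM, with no overlap (-0.42 ± 0.06, adjusted p = 0.00012). The catalytic subunit mt-Co1 went from 6839 and 6883 CPM to 5766, 5375 and 5590 CPM, a log2 fold change of -0.33 ± 0.05 (adjusted p = 0.000149). mt-Co2 had a log2 fold change of -0.25 ± 0.05 (adjusted p = 0.00239). The ATP synthase genes mt-Atp8 and mt-Atp6 differed in size of change, at -0.43 ± 0.06 and -0.25 ± 0.05 (adjusted p = 0.000181 and 0.00204); that difference was not tested.

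Neither rRNA gene was called. mt-Rnr1 was at 117 and 95.2 CPM in controls and 105, 85.4 and 108 CPM in induced pools, and mt-Rnr2 at 216 and 168 CPM against 168, 142 and 183 CPM. Both overlapped between groups (log2 fold changes -0.13 ± 0.12 and -0.27 ± 0.16, adjusted p = 0.459 and 0.272).

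Without control pool 3, mt-Nd1, mt-Nd3 and mt-Cytb were no longer called, leaving 10, and without control pool 2, mt-Nd1 and mt-Nd3 were not, leaving 11. In 1 model over all 8 groups, which shares 1 estimate of spread between the variable E7.5 pools and the E9.5 pools, 0 of 13 genes were called. The share of the 13 genes in the induced pools, 2.2% to 2.41%, overlapped with that in the E9.5 controls of the Oct4 line, 2.35% to 2.41%. A contrast with those controls was not tested. Library totals were larger in both Nanog line controls than in every induced pool. A floor of 3 counts stood at 0.19 and 0.192 CPM in the Nanog line controls and at 0.533 to 0.628 CPM in the induced pools. Whether depth contributed was not tested. Blood markers moved with these groups: 7 of 7 fell, from a sum of 4729 to 6276 CPM to 1364 to 1860 CPM, while 7 heart markers summed to 741 to 995 and 755 to 1132 CPM. Decidual and maternal blood markers summed to 27.2 to 34.8 CPM in controls and 74.4 to 83.9 CPM in induced pools, with 2 of 2 tested called higher, and Prl3c1, a decidual prolactin-family gene, was at 0 in the induced pools. Their part in the mitochondrial counts was not tested.

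**Figure D3:**
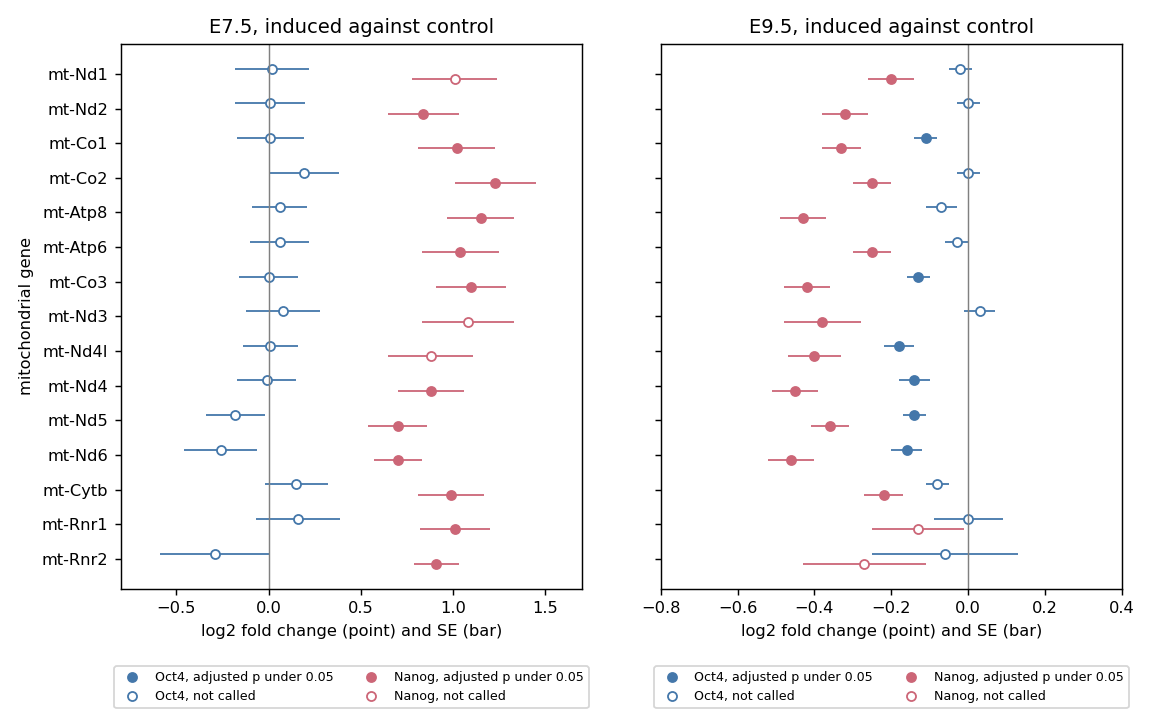
Log2 fold change of induced against control pools (x axis, point) with its SE (bar) for each protein-coding and rRNA gene (y axis), by line and stage. In the Nanog line 10 of 13 protein-coding genes are called higher at E7.5 and 13 of 13 lower at E9.5, while in the Oct4 line 0 are called at E7.5 and 6 lower at E9.5.

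In the Oct4 line at E9.5 the differences were small. The 13 genes held 2.35% to 2.41% of counts in the 3 controls and 2.24% to 2.32% in the 3 induced pools. Although the groups did not overlap, the means of 2.38% ± 0.0332 and 2.27% ± 0.0438 (SD, n = 3 each) stood in a ratio of 0.952 (two-sided exact permutation p = 0.1, the smallest possible; 0.2 adjusted over 6 comparisons). In all, 6 of the 13 genes fell: mt-Co1, mt-Co3, mt-Nd4l, mt-Nd4, mt-Nd5 and mt-Nd6. Of the 13957 genes tested, 4.61% were called lower and 4.69% higher. The median log2 fold change was -0.08 (range -0.18 to 0.03), against 0.00 over all genes. The CPM of the groups did not overlap for 5 of the 13 genes. How often that held over all genes tested was not worked out for this contrast.

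Of the complex I genes, mt-Nd5 was at 1442, 1437 and 1484 CPM in controls and 1290, 1290 and 1388 CPM in induced pools. Its groups did not overlap (log2 fold change -0.14 ± 0.03, adjusted p = 0.0123). mt-Nd4l was at 147, 152 and 145 CPM against 131, 127 and 138 CPM, as its equal share with Gm10222, and had the largest change of the 13, -0.18 ± 0.04 (adjusted p = 0.0172). mt-Nd6, at 368, 391 and 396 CPM against 329, 355 and 358 CPM, was also lower in every induced pool (-0.16 ± 0.04, adjusted p = 0.0251). mt-Nd4 was called (-0.14 ± 0.04, adjusted p = 0.0344) although its groups overlapped, at 1707, 1845 and 1884 CPM in controls and 1609, 1636 and 1716 CPM in induced pools.

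mt-Co1 was at 5918, 5963 and 6168 CPM in controls and 5571, 5516 and 5682 CPM in induced pools, every induced pool being lower (-0.11 ± 0.03, adjusted p = 0.015). mt-Co3 behaved alike, with 2298, 2448 and 2478 CPM against 2197, 2215 and 2216 CPM (-0.13 ± 0.03, adjusted p = 0.018). mt-Nd1, mt-Nd3 and mt-Cytb were not called, with log2 fold changes of -0.02, 0.03 and -0.08. Nor were mt-Co2, mt-Nd2 and the ATP synthase genes, with log2 fold changes of 0.00, 0.00, -0.07 (mt-Atp8) and -0.03 (mt-Atp6). The rRNA genes were at 0.00 ± 0.09 and -0.06 ± 0.19.

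These calls were not stable to the choice of pools. Without control pool 2, or without induced pool 3, 0 of the 13 genes were called, and without control pool 3, or without induced pool 4, 2 were. In 1 model over all 8 groups 0 were called. Blood markers again moved with the groups, in the direction opposite to that of the Nanog line: 3 of 7 rose, from a sum of 4502 to 5783 CPM to 6342 to 7720 CPM. The decidual and maternal blood markers went from 33.1 to 45.2 CPM up to 138 to 171 CPM in sum, with 2 of 2 tested called higher and Prl3c1 at 0 in both groups. Trophoblast markers went from 16.7 to 27.2 CPM up to 38.3 to 43.5 CPM, with 1 of 2 tested called higher and Tpbpa at 0 in both groups. Their part in the mitochondrial counts was not tested.

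The inductions of the 2 lines were then compared directly, by testing the difference between their log2 fold changes. At E9.5, 11 of the 13 genes had a higher fold change in the Oct4 line than in the Nanog line, where 5.57% of 14604 genes tested did and 7.92% were called lower. The median difference was 0.26 log2 units (range 0.14 to 0.42), and the largest belonged to mt-Nd3 (0.42). The induced pools of the lines held similar mean shares of the 13 genes, 2.27% (Oct4) and 2.32% (Nanog). Their controls lay further apart, at 2.38% and 2.82%, and a difference between the controls of the lines was not tested. mt-Cytb (0.14, adjusted p = 0.109) and mt-Nd4l (0.23, adjusted p = 0.0732) were not called. Without Nanog line control pool 3, 7 genes were called.

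At E7.5, the differences between the inductions were larger but not called. The median was -0.99 log2 units, and 0 of 13 genes passed by edgeR, with 13 at an unadjusted p under 0.05, 8 called by DESeq2 and 0 by limma-voom. Of all 16680 genes tested 0.204% were called in this test, 0.138% higher and 0.0659% lower. Its Nanog arm sets libraries with few tRNA counts against libraries with many, as described further on, and its Oct4 arm does not. The factor and this split of libraries therefore cannot be told apart in it.

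Across stages, the effect of Nanog induction differed for every protein-coding and rRNA gene: 13 of 13 and both rRNA genes had a lower log2 fold change at E9.5 than at E7.5. Among the 14897 genes tested, 4.79% were called lower and 8.02% higher. The median difference was -1.30 log2 units for the protein-coding genes (range -1.59 for mt-Atp8 to -1.07 for mt-Nd5). Leaving out single pools gave 10 to 13 calls. In the Oct4 line 0 of 13 genes differed between stages by edgeR, 0 at an unadjusted p under 0.05 and 0 by DESeq2 or limma-voom, while 6.69% of 16359 genes were called, 4.84% higher and 1.85% lower. These tests reuse the controls of the separate contrasts above and add no independent samples. The E7.5 pools had an injection at E4.5 and then treated water, and the E9.5 pools treated water from E6.5. In the tests across stages, stage and dosing therefore cannot be told apart. In the Nanog line, the E7.5 arm also sets libraries with few tRNA counts against libraries with many, as described further on.

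Among uninduced embryos, mitochondrial mRNAs took a smaller share of counts at E9.5 than at E7.5. In the Oct4 line controls the mean share of the 13 genes was 4.76% ± 0.701 at E7.5 and 2.38% ± 0.0332 at E9.5 (SD, n = 3 each), with no overlap (two-sided exact permutation p = 0.1, the smallest possible; 0.2 adjusted over 6 comparisons). In the Nanog line controls it was 3.43% ± 0.228 and 2.82% ± 0.0445 (n = 2 each; exact permutation p = 0.333, again the smallest possible; 0.4 adjusted).

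All 13 genes were lower at E9.5 in the Oct4 line, but this contrast called many genes: 37.1% of 15770 genes were lower and 36.5% higher. The median log2 fold change of the 13 was -1.20 (range -1.53 to -0.99), against -0.02 over all genes. mt-Nd3 changed most among the protein-coding genes, from 497, 761 and 688 CPM at E7.5 to 275, 250 and 252 CPM at E9.5 (-1.53 ± 0.17, adjusted p = 0.000292). Its groups were far apart, as were those of mt-Cytb, which changed least (-0.99 ± 0.14, adjusted p = 0.000646). mt-Rnr1 and mt-Rnr2 fell further, by 1.86 ± 0.18 and 1.78 ± 0.34 on the log2 scale (adjusted p = 0.000117 and 0.00828).

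In the Nanog line 11 of the 13 genes were lower at E9.5, where 32% of 14872 genes were called lower, and the median was -0.33 (range -0.51 to -0.06). mt-Atp8 (-0.11 ± 0.05, adjusted p = 0.0884) and mt-Nd3 (-0.06 ± 0.05, adjusted p = 0.322) were not called, and neither rRNA gene was. mt-Co2 was not called without E7.5 control pool 3 (-0.12, adjusted p = 0.0764). Whether the stage difference itself differs between the lines was not tested.

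**Figure D4:**
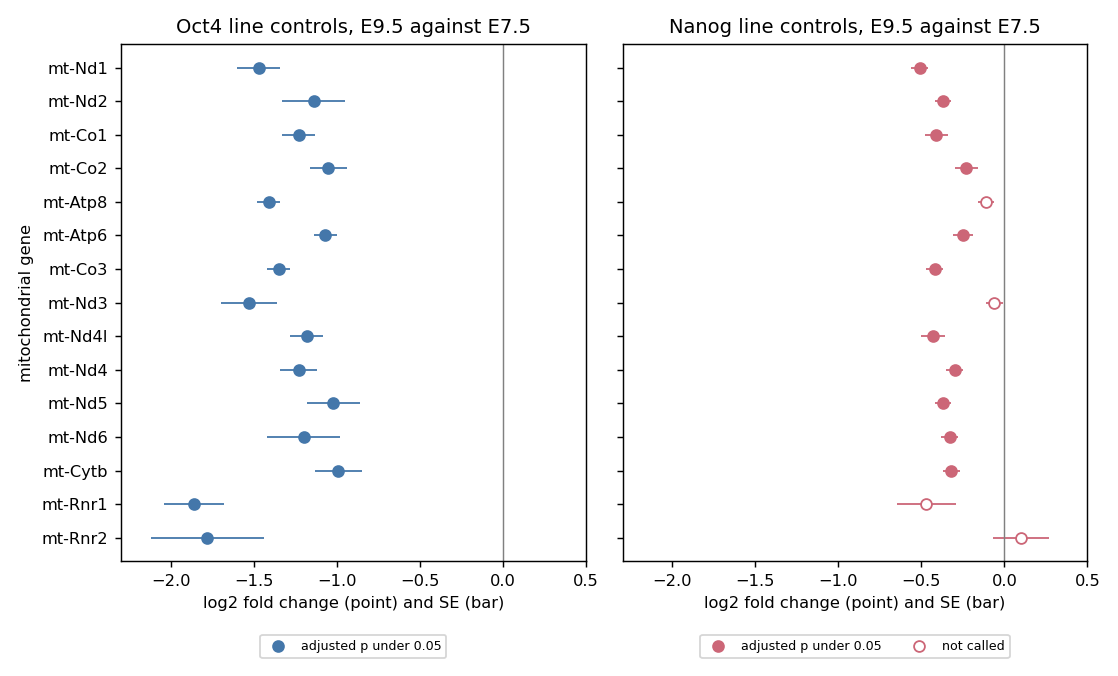
Log2 fold change of E9.5 against E7.5 control pools (x axis, point) with its SE (bar) for each protein-coding and rRNA gene (y axis), in the Oct4 line and the Nanog line; filled points were called. The 13 protein-coding genes lie between -1.53 and -0.99 in the Oct4 line and between -0.51 and -0.06 in the Nanog line.

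The tRNA models divided the libraries in another way. Each tRNA carries 1 amino acid to the mitochondrial ribosome. The 6 tRNA genes that averaged 1 CPM or more, or were called in an induction, are printed because they hold most of these counts. They are mt-Te (glutamate, chrM:14071-14139, minus strand), mt-Tl1 (leucine, chrM:2676-2750, plus strand), mt-Ts1 (serine, chrM:6870-6938, minus strand), mt-Tg (glycine, chrM:9391-9458, plus strand), mt-Tn (asparagine, chrM:5089-5159, minus strand) and mt-Tc (cysteine, chrM:5192-5257, minus strand). Of these, mt-Tn (mean 0.837 CPM) and mt-Tc (0.541 CPM) were taken in only through calls in the Nanog E7.5 contrast, described further on without a test. Capitals mark bases shared with another gene model, here the end of mt-Ts1 with that of mt-Co1 on the other strand.
mt-Te: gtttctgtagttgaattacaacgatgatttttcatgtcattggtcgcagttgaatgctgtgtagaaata
mt-Tl1: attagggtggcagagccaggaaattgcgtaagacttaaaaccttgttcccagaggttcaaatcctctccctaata
mt-Ts1: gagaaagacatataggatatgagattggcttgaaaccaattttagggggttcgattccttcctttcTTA
mt-Tg: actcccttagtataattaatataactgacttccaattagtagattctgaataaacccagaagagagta
mt-Tn: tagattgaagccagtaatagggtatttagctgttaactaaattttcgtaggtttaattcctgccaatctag
mt-Tc: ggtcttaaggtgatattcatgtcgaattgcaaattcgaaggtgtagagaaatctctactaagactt

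Summed over the 22 tRNA genes, the 8 libraries of the Oct4 E7.5 groups and of the Nanog E7.5 controls held 22.4 to 45.5 CPM (164 to 1801 counts). The other 14 libraries, namely the Nanog E7.5 induced pools and all E9.5 pools, held 0 to 1.05 CPM (0 to 12 counts). No library lay between these ranges. The nuclear genome has 1099 other gene models under 80 nucleotides, 156 of them with counts, and their sum divided the same libraries, at 5.36 to 9.29 CPM in the 8 and 0.0777 to 1.13 CPM in the 14. Library totals overlapped between the sets.

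This division coincides with induction in the Nanog E7.5 contrast and with stage in the control contrasts, so it cannot be told apart from either there. The contrast of induced with control pools lies within 1 set of libraries for the Oct4 line at both stages and for the Nanog line at E9.5. Sequencing used a GAII or a HiSeq instrument, per the labels' protocols, and which library ran on which is not given in the sources used here.

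**Figure D5:**
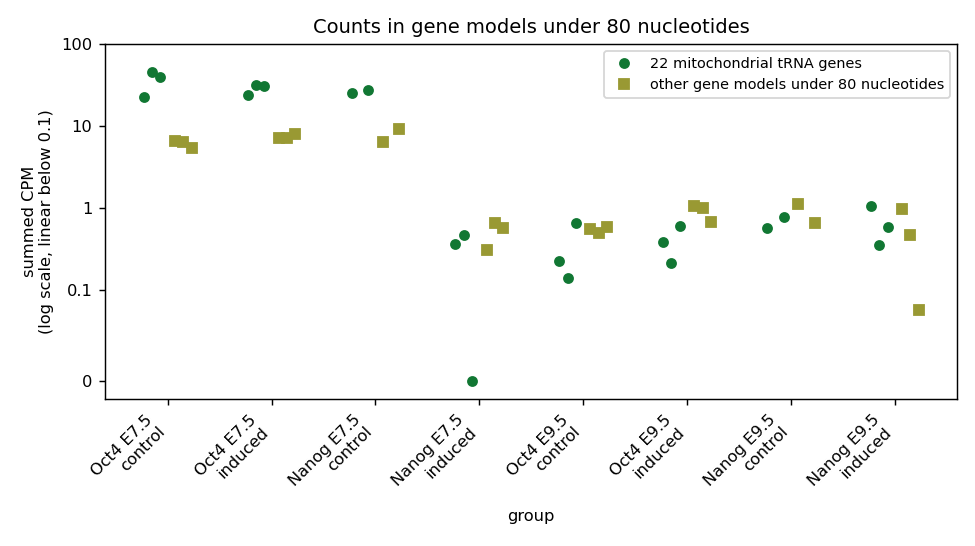
Summed CPM (y axis, log scale above 0.1 and linear below) of the 22 mitochondrial tRNA genes (circles) and of all other gene models under 80 nucleotides (squares) in each pool, by group. Both sums are high in the 8 pools of the Oct4 E7.5 groups and Nanog E7.5 controls, where the tRNA sum is 22.4 to 45.5 CPM, and low in the other 14, where it is 0 to 1.05 CPM.

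In the Nanog E7.5 contrast tRNA genes passed the filter on low counts through the control pools alone, so their counts are given as a description, with no test. mt-Te had 179 counts over both control pools and 1 over the 3 induced pools, a control-to-induced ratio in CPM of 519 (95% interval 92 to 20611, counting error only). mt-Ts1 went from 83 counts to 0, at least 80.2-fold lower, the bound being set by 3 counts over the induced group. On the same footing mt-Tc (31 counts to 0) was at least 30-fold lower, mt-Tg (29 to 0) at least 28-fold and mt-Tn (24 to 0) at least 23.2-fold. mt-Tl1 had 15 counts in controls and 11 in induced pools, a ratio of 3.95 (1.7 to 9.52).

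In the Oct4 line at E7.5, 12 tRNA genes were tested and edgeR called 0, with 0 at an unadjusted p under 0.05. mt-Te had 1215 and 932 counts in controls and induced pools, mt-Tl1 716 and 375, and mt-Tg 593 and 353. The 8 minus-strand tRNA genes held 61.3% of the tRNA counts in the Oct4 E7.5 controls, 66.4% in the Oct4 E7.5 induced pools and 83% in the Nanog E7.5 controls. In the other 5 groups, with 9 to 21 tRNA counts each, they held 0% to 47.6%. mt-Td and mt-Tr, the tRNAs for aspartate and arginine, had 0 counts in all 22 libraries.

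The make-up of the mitochondrial mRNA pool was described as each gene's percent of the counts of the 13, without a test. After Nanog induction at E7.5, mt-Co2 and mt-Co3 took larger shares, at 10.9% to 11.7% in controls against 11.8% to 13.9% for mt-Co2. mt-Nd2 (5.37% to 5.55% against 4.69% to 4.95%), mt-Nd5 (5.72% to 6.52% against 4.29% to 5.61%) and mt-Nd6 (1.57% to 1.77% against 1.17% to 1.48%) took smaller ones. The share of mt-Co2 was above that of controls in every induced pool of the other contrasts too, at 10.9% to 11.2% against 11.6% to 12.5% in the Oct4 line at E7.5, 12% to 12.3% against 12.8% to 12.9% in the Oct4 line at E9.5, and 12.2% to 12.3% against 12.7% to 12.9% in the Nanog line at E9.5. At E9.5 the share of mt-Nd5 was lower in every induced pool of either line, at 6% to 6.16% against 5.74% to 5.98% with Oct4 and 5.98% to 6.03% against 5.72% to 5.93% with Nanog. The shares of mt-Atp8, mt-Co3, mt-Nd4 and mt-Nd6 were lower and those of mt-Nd1 and mt-Cytb higher in every induced Nanog pool at E9.5. With Oct4 at E9.5, mt-Nd2 was likewise higher and mt-Co1 and mt-Nd4l lower. Shares of 12 of the 13 genes overlapped between groups for Oct4 at E7.5 and of 5 for Nanog at E9.5. For Nanog at E7.5 and Oct4 at E9.5, 8 overlapped. With 2 or 3 pools per group, no rate of such separation without a change was worked out.

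Nuclear genes that serve the mitochondrial chromosome were followed in lists. Of 17 genes for transcription and replication of mitochondrial DNA, 1 was called in the Oct4 line at E7.5, where 6.17% of all genes were, and 2 in the Nanog line, where 7.78% were. Polg, the catalytic subunit of the mitochondrial DNA polymerase, fell in both, with means of 330 ± 1.51 and 260 ± 17.7 CPM for Oct4 (log2 fold change -0.31 ± 0.08, adjusted p = 0.0463) and of 310 ± 24.2 and 208 ± 29.5 CPM for Nanog (-0.52 ± 0.12, adjusted p = 0.0307). Ssbp1, the mitochondrial single-stranded DNA-binding protein, rose with Nanog (0.36 ± 0.09, adjusted p = 0.037). At E9.5, 0 of the 17 were called with Oct4, where 9.29% of all genes were. With Nanog, where 28.4% of all genes were called, 2 rose and 2 fell. Polrmt, the mitochondrial RNA polymerase, rose (26.5 ± 2.55 to 36.8 ± 1.97 CPM, 0.44 ± 0.10, edgeR adjusted p = 0.00447). Polg, lower at E7.5, rose too (74.6 ± 1.6 to 90.1 ± 6.26 CPM, 0.24 ± 0.07, adjusted p = 0.0233). Mterfd1 fell (-0.35 ± 0.08, adjusted p = 0.00541), as did Tfam, which packages mitochondrial DNA and starts its transcription (111 ± 1.14 to 98 ± 8.5 CPM, -0.22 ± 0.07, adjusted p = 0.0325).

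Of 24 genes for processing and stability of mitochondrial RNA, the 1 called in either line at E7.5 was Grsf1, which encodes an RNA-binding protein of mitochondrial RNA granules. It was at 285 ± 52.3 CPM in Oct4 line controls and 164 ± 7.91 CPM in induced pools (SD, n = 3 each; -0.76 ± 0.12, adjusted p = 0.00785). In the Nanog line it was at 268 ± 8.9 and 120 ± 14.3 CPM (-1.11 ± 0.11, adjusted p = 0.000877), and neither contrast overlapped. So Grsf1 fell in both lines at E7.5, and a link to the mitochondrial counts was not tested. At E9.5 it rose slightly with Oct4 (0.18 ± 0.04, adjusted p = 0.0147), and with Nanog 3 of the 24 rose and 5 fell, beside 28.4% of all genes called. Among these were Fastk (0.46 ± 0.08, adjusted p = 0.000728) and Pnpt1, the mitochondrial polynucleotide phosphorylase (-0.38 ± 0.07, adjusted p = 0.00164). Among 9 regulators of mitochondrial biogenesis, 0 were called in either line at E7.5. In the Nanog line at E9.5 the nuclear receptor Esrra rose from a mean of 8.43 ± 0.354 to one of 17 ± 1.1 CPM (0.97 ± 0.15, adjusted p = 0.000251), and Gabpa and Gabpb1, subunits of nuclear respiratory factor 2, fell (-0.23 ± 0.07 and -0.21 ± 0.07, adjusted p = 0.0151 and 0.0357).

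The nuclear partners of the mitochondrial subunits were described in the same way, beside 7.78% of all genes called at E7.5 with Nanog. The complex I list holds Ndufa4, in keeping with its symbol, although its product is now placed in complex IV. Of the nuclear genes tested, 0 of 19 for complex I, 0 of 9 for complex III, 2 of 10 for complex IV and 1 of 13 for ATP synthase were called, all higher, with medians of 0.19, 0.21, 0.30 and 0.09 on the log2 scale against 0.00 over all genes. Cox7c and Cox8a, small subunits of complex IV, rose by 0.46 ± 0.09 and 0.45 ± 0.10 log2 units (adjusted p = 0.0151 and 0.0279), and Atp5l of the ATP synthase by 0.44 ± 0.10 (adjusted p = 0.025). Of 76 mitochondrial ribosomal proteins 2 rose, Mrpl13 and Mrps25, at a median of 0.11. Complex II, which has no mitochondrially encoded subunit, had 0 of 4 genes called, and of 17 mitochondrial aminoacyl-tRNA synthetases 0 were. In the Oct4 line at E7.5, 0 genes of these 7 lists were called.

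At E9.5 with Nanog, nuclear subunit genes were called in both directions, as were 15.4% (higher) and 13% (lower) of all genes. For the complex I list 3 rose and 2 fell, Ndufa4 among the latter. For complex III 5 rose and 3 fell, for complex IV 2 and 2, and for ATP synthase 2 and 2. The medians of these 4 lists were -0.08, 0.22, 0.04 and -0.05. Examples are Ndufs4 of complex I (-0.45 ± 0.08, adjusted p = 0.00117), Uqcrq of complex III (0.53 ± 0.10, adjusted p = 0.00112) and Atp5d of the ATP synthase (0.47 ± 0.07, adjusted p = 0.000233). Of the ribosomal proteins 13 rose and 6 fell. Complex II had 1 gene higher, Sdhc (0.19 ± 0.07, adjusted p = 0.0435), and of the aminoacyl-tRNA synthetases 3 rose, such as Aars2 (0.64 ± 0.11, adjusted p = 0.000784), and 3 fell. With Oct4, Cox7b of complex IV rose from 88.1 ± 1.23 to 166 ± 26.3 CPM (0.89 ± 0.12, adjusted p = 0.0122) and Atp5c1 fell (-0.16 ± 0.05, adjusted p = 0.0309). Those were the 2 genes called in the 7 lists, beside 9.29% of all genes called with Oct4 at E9.5.

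Between stages, by contrast, most nuclear subunit genes of complexes I, III, IV and ATP synthase were lower in uninduced embryos, as the mitochondrial ones were. In the Oct4 line 19 of 19 genes of the complex I list, Ndufa4 included, were lower at E9.5. So were 9 of 9 of complex III, 10 of 10 of complex IV and 13 of 13 of ATP synthase. The medians were -0.74, -0.92, -0.84 and -0.63. Uqcr10 of complex III, for example, went from 89.5 ± 3.58 to 39.2 ± 1.73 CPM (-1.38 ± 0.07, adjusted p = 1.52e-08). For the Nanog line the counts were 12 of 19, 8 of 9, 10 of 10 and 10 of 13. Complex II had 2 of 4 genes lower in the Oct4 line and 1 of 4 in the Nanog line, at medians of -0.07 and -0.05. Over all genes, 37.1% and 32% were called lower. Of 17 aminoacyl-tRNA synthetases, 10 were lower and 2 higher in the Oct4 line, and 6 lower and 1 higher in the Nanog line. Of 9 biogenesis regulators, 5 were lower and 2 higher in the Oct4 line, and 4 lower and 2 higher in the Nanog line. The mitochondrial ribosomal proteins had 66 of 76 lower in the Oct4 line and 53 of 76 lower, with 4 higher, in the Nanog line. Of the transcription and replication list 11 of 17 were lower and 1 higher in the Oct4 line and 4 lower and 1 higher in the Nanog line, with Polg at -2.02 ± 0.06 and -2.12 ± 0.07 (adjusted p = 5.92e-10 and 1.45e-11). The same contrasts called 73.5% and 63.8% of all genes in either direction, and markers of several cell types differed strongly between stages, heart markers rising from 24.4 to 31.8 CPM at E7.5 to 881 to 1037 CPM at E9.5 in the Oct4 line. Their part in these differences was not tested.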

How the data were processed

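Total RNA of 22 embryo pools was sequenced, and the authors deposited 1 table of expected counts per gene, the read numbers that RSEM estimates for each gene. Per the submitters' processing notes, cutadapt, Picard, RSEM 1.17 and limma were used with the NCBIM37 genome. The gene identifiers are those of Ensembl release 65 (GENCODE M1), in which 37309 of 37680 were found. Whether counting used strand is not given in the sources used here.

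The deposited expected counts, of which 12.8% to 21.4% of values per library were not whole, were rounded. edgeR 4.0.16 in R 4.3.3 (TMM scaling, filterByExpr, robust quasi-likelihood F test, 2 groups per fit or 4 for an interaction) was fitted over all genes and adjusted with the Benjamini-Hochberg method, calling adjusted p under 0.05. The scripts were tested on simulated data. Shares of library totals were compared by two-sided exact permutation tests with scipy 1.17.1 (Python 3.11.15, pandas 2.3.3). Nuclear copies of at least 95% identity were searched with BLAST 2.17.0, and sequences were read with samtools 1.23.1. DESeq2 1.42.0 and limma 3.58.1 (voom) served as alternatives. Replicate pairs within groups differed beyond sampling noise (chi-square per degree of freedom 1.6 to 67.1 over 20 pairs). Intervals are 95% exact intervals of counts, which cover counting error only.

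All protein-coding and rRNA members are named, tRNA genes that averaged 1 CPM or more or were called in an induction, and up to 2 genes per direction of each nuclear list with the lowest p. The members, the nuclear lists and the markers were chosen with earlier results of these data known.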

Additional observations from a re-analysis of the deposited data

Results flagged for a closer look

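The response to Nanog induction differed between stages, by the test of the difference between the E9.5 and E7.5 log2 fold changes in edgeR, for all 13 protein-coding and both rRNA genes. The differences for complex I genes were -1.23 (mt-Nd1), -1.18 (mt-Nd2), -1.47 (mt-Nd3), -1.28 (mt-Nd4l), -1.34 (mt-Nd4), -1.07 (mt-Nd5) and -1.17 (mt-Nd6). They were -1.23 for mt-Cytb of complex III, -1.37, -1.50 and -1.53 for mt-Co1, mt-Co2 and mt-Co3 of complex IV, and -1.59 and -1.30 for mt-Atp8 and mt-Atp6 of the ATP synthase. The rRNA genes stood at -1.15 (mt-Rnr1) and -1.19 (mt-Rnr2). The E7.5 arm sets libraries with few tRNA counts (induced) against libraries with many (control), and the E9.5 arm does not. Doxycycline dosing also differed between the arms, so it cannot be told apart from stage.

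At E9.5 the log2 fold change was higher with Oct4 than with Nanog for 11 protein-coding genes, by the same kind of test. The differences were 0.18 (mt-Nd1), 0.33 (mt-Nd2), 0.42 (mt-Nd3), 0.31 (mt-Nd4), 0.22 (mt-Nd5) and 0.31 (mt-Nd6) for complex I. For complex IV they were 0.22 (mt-Co1), 0.26 (mt-Co2) and 0.29 (mt-Co3), and for the ATP synthase 0.36 (mt-Atp8) and 0.22 (mt-Atp6). All E9.5 libraries held few tRNA counts, so those sets do not divide this test.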

How the results depend on the processing

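DESeq2, limma-voom, scaling without mitochondrial genes or by library size only, no filter on low counts, the chromosome 1 copies added, the replicate block, 1 model over all groups and the denominators of the shares left 77 counts and shares of the protein-coding genes within 1.5 times, or 1 SD, of the value given; with DESeq2 the Oct4 against Nanog comparison at E7.5 gave 8 called genes in place of 0. In 1 model over all groups 0 protein-coding genes were called at E9.5 for Oct4 and 0 for Nanog, in place of 6 and 13. With controls chosen after seeing the data, Nanog E7.5 gave 1 (Oct4 line controls) and 5 (all 5 E7.5 controls) in place of 10. The log2 fold change of mt-Rnr1 turned to -0.01 with the Oct4 line controls, and that of mt-Rnr2 to -0.59 with them and to -0.16 with all 5; the cause was not tested. The log2 ratio of the rRNA share alone was -0.04 for Oct4 and -0.18 for Nanog at E9.5, against -0.07 and -0.28 for the 13 genes.

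Leaving out each pool in turn gave 0 to 12 called protein-coding genes for Nanog E7.5, 0 to 6 for Oct4 E9.5, 10 to 13 for Nanog E9.5, 10 to 12 for the Nanog line stage contrast, 7 to 12 for Oct4 against Nanog at E9.5 and 10 to 13 for Nanog between stages. It gave 0 for the other inductions and comparisons of inductions and 13 for the Oct4 line stage contrast. The genes called in every such fit were 0 of 10 for Nanog E7.5, 0 of 6 for Oct4 E9.5, 10 of 13 for Nanog E9.5 and 13 of 13 for the Oct4 line stage contrast. The log2 ratio of the share of the 13 genes ran from -0.11 to 0.14 (Oct4 E7.5), 0.79 to 1.11 (Nanog E7.5), -0.09 to -0.06 (Oct4 E9.5) and -0.31 to -0.24 (Nanog E9.5). Where a group was left with 1 pool, the spread came from the other pools of the fit, and that pool was taken to vary as they do.

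With the replicate number as a block, 0 protein-coding genes were called for Oct4 E7.5 and 13 for Nanog E9.5, as without it, and mt-Rnr2 was called lower at Nanog E9.5 (-0.28, edgeR adjusted p = 0.0235). The Nanog E9.5 block fit left out induced pool 1, which has no control of its number. Calls over all genes went from 991 to 1287 for Oct4 E7.5. For Nanog E9.5 they went from 3772 to 3290, with 3487 in the fit without that pool and without a block. The changes at Nanog E9.5 thus come from the block and the missing pool together. Same-numbered pools deviated together by correlations of 0.132, 0.139 and 0.0111 for Oct4 E7.5, each pool correlating best with its own number. For Nanog E9.5 the correlations were -0.0941 and 0.0333. The main tests did not take the numbers as pairs. Their SE and p-values for Oct4 E7.5 therefore leave out any pairing that the numbers may stand for. The other inductions share 1 number each.

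Over all genes, DESeq2 called 715 for Oct4 E9.5 (edgeR 1297), 2414 for Nanog E9.5 (3772) and 244 for Oct4 against Nanog at E7.5 (34, with 13 by limma-voom and 56 without a filter). The 1 model over all groups called 1638 (991), 2737 (1099), 312 (1297) and 1958 (3772) for Oct4 E7.5, Nanog E7.5, Oct4 E9.5 and Nanog E9.5. Without a filter Nanog E7.5 had 1721, and with the other controls 3744 and 2939. Scaling by library size only moved the median of all genes to 0.18 in the Oct4 line stage contrast, where 7145 genes were then higher and 4459 lower (5751 and 5844 before), and the 13 genes were still called lower. For Nanog between stages it gave 1696 higher and 427 lower (1194 and 713).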
